A study of Mus musculus with 6 samples.

Results

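The genes described here are 53 genes of epithelial junctions, keratin filaments and epithelial identity, taken by symbol from a table of 49315 genes measured in mouse embryonic fibroblasts. R206H cells were heterozygous for the R206H allele of Acvr1 (Acvr1R206H/+), the receptor change of fibrodysplasia ossificans progressiva, and wild-type (WT) cells were Acvr1+/+. All fibroblasts came from E13.5 embryos and were harvested at passage 0 after 2 days of culture in medium with fetal bovine serum, and their RNA was depleted of ribosomal RNA and sequenced. Each genotype had 3 libraries, called biological replicates in the design text; the labels do not say whether each came from its own embryo, so p-values measure only the spread between these libraries. Fibroblasts grown out of whole embryos are a mixed population, and neither strain nor embryo sex is given in the sources used here.

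Epithelial cells are held together by adherens junctions built on cadherins, sealed by tight junctions built on claudins and occludin, and anchored to one another by desmosomes to which keratin filaments attach. Keratins form filaments as pairs of a type I and a type II chain, such as Krt18 with Krt8 in simple epithelia and Krt14 with Krt5 in basal epidermal cells. The programme is kept by transcription factors such as the Grainyhead-like family and by the splicing regulators Esrp1 and Esrp2, and it is repressed in mesenchymal cells by Snail and Zeb proteins, which bind the E-box letters CACCTG. Fibroblasts normally make little of it, although mesothelial cells share the simple keratins and several members, such as Jup, Perp and Klf5, are used widely outside epithelia.

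The E-box letters were looked for in RefSeq promoter windows (GRCm38.p6), each running from 250 bases before to 50 bases after an annotated start. Windows were available for 29 of the 53 genes, 38 windows in all. The 24 genes without one, Cdh1, Cdh3, Krt80 and Crct1 among them, were not searched. The letters CACCTG, read on both strands so that CAGGTG also counts, stood in 26 of the 38 windows (68.4%) and in 20.2% of all 32851 windows. At gene level 22 of the 29 genes held a match and 7 did not, namely Cgn, Grhl1, Jup, Krt14, Rbm47, Sdcbp2 and Spint1. The Grainyhead-like letters AACNNGTT stood in 3 of the 38 windows (7.89%), those of Rab25, Cgn and Sfn, and in 4.2% of all windows. Base composition differs between promoters and was not matched in these shares, and a match is a description of letters rather than a bound site. The 250 bases upstream of the start are shown, on the gene's own strand, for 4 genes whose levels are given in the following paragraphs and whose upstream bases hold a match, with CACCTG or CAGGTG in capitals.
Their positions are chr17:87635729-87635978 on the plus strand for Epcam, chr5:134946935-134947184 on the minus strand for Cldn4, chr2:168080754-168081003 on the plus strand for Pard6b and chr9:21312334-21312583 on the minus strand for Ap1m2.
Epcam: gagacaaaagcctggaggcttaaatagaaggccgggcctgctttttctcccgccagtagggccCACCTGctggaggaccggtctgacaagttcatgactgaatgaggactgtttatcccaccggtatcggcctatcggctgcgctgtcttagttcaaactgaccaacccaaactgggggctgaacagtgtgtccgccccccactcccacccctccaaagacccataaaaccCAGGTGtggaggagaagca
Cldn4: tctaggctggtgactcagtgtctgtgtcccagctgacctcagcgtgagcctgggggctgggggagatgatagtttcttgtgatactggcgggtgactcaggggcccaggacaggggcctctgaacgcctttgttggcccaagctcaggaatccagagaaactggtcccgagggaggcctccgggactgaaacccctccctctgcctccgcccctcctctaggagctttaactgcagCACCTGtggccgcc
Pard6b: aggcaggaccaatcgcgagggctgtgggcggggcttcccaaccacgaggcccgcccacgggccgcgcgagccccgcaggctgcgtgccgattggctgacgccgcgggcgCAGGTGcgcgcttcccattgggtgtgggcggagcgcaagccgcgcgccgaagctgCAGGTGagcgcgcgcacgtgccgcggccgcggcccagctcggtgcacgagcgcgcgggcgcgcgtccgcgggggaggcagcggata
Ap1m2: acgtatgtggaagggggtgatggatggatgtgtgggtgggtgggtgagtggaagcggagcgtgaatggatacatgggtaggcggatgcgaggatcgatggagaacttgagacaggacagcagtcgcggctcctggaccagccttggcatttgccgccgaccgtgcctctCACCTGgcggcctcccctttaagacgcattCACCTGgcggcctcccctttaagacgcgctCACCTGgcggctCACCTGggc
The first base of the match lay 187 and 19 bases upstream of the start in Epcam, 14 bases upstream in Cldn4, and 141 and 86 bases upstream in Pard6b. Cldn4 also held a match 12 bases downstream of its start, outside the bases shown. Ap1m2 held 4 matches, at 81, 51, 21 and 9 bases upstream. Cldn3, the gene with the lowest adjusted p among the claudins, had a single match, 32 bases downstream of its start.

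Levels are TPM, transcripts per 1000000, in which each gene's reads are divided by its length and each library sums to 1000000. Depth was rebuilt from the values at 17800000 to 21700000 reads in R206H libraries and 17500000 to 24600000 in WT libraries, so that 1 read on a 2000 nt transcript was worth 0.0739 to 0.106 TPM. A gene was tested when 3 or more libraries held it at TPM 1 or above. The test was limma on log2(TPM + 1), a scale that understates the fold change of weakly expressed genes, with Benjamini-Hochberg adjustment over all 14818 genes tested and a threshold of 0.05. Fibroblast markers were abundant in every library, with a summed level of 11460 to 14200 TPM in R206H libraries and 7629 to 9780 TPM in WT libraries. The defining epithelial markers Epcam, Cdh1, Esrp1 and Grhl2 were weak by comparison, with no value above 8.48 TPM in any library. In bulk RNA, fewer cells of a type and less RNA per cell cannot be told apart.

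Of the 53 genes, 37 were tested, and 6 of them were lower in R206H cells past the threshold, namely Cldn3, Epcam, Krt80, Crct1, Sdcbp2 and Pard6b. Over all genes tested, 0.79% were lower by that rule. A single member, Cdh3, was higher, where 1.26% of all genes were, and 30 tested members did not pass. At an unadjusted p under 0.05 in limma, 25 of the 37 were lower, against 11.7% of all genes, and 1 was higher, against 14.4%. The libraries of R206H and WT cells did not overlap, with all R206H libraries lower, in 25 of 37 tested members against 15% of all genes, and with all R206H libraries higher in 1 against 17.9%. The median difference of the tested members, R206H minus WT, was -0.79 on the log2 scale, beside 0.02 for all genes tested. Of these members 33 were negative and 4 positive, where 46.4% of all genes tested were negative. In 46 of all 53 members, tested or not, the mean TPM was lower in R206H cells.

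These counts include Krt80, Crct1 and Sdcbp2, which were already known to be among the clear decreases of the series when the genes were listed. The other members were also listed with earlier results of these data known, so the recounts here are not from a list chosen without the data. Without Krt80, Crct1 and Sdcbp2, 3 of 34 tested members were lower and 1 higher past the limma threshold. With no overlap of libraries 22 were lower, and the median was -0.76. Epcam, Pkp3, Cldn7 and Crb3 reached TPM 1 only in WT libraries, so they were tested only because WT levels were higher. Leaving these out, 5 of 33 tested members were lower and 1 higher past the limma threshold, 21 were lower with no overlap, and the median was -0.74. Leaving out Krt80, Crct1 and Sdcbp2 as well, 2 of 30 were lower, Cldn3 and Pard6b, 18 were lower with no overlap, and the median was -0.64. limma voom on the rebuilt reads called 15 of the 37 lower, against 4.08% of all genes, and 1 higher, against 4.61%. The 15 held all 6 limma decreases together with Cdh1, Cldn4, Krt7, Krt18, Klf5, Ppl, Perp, Spint2 and Lamb3.

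**Figure D1:**
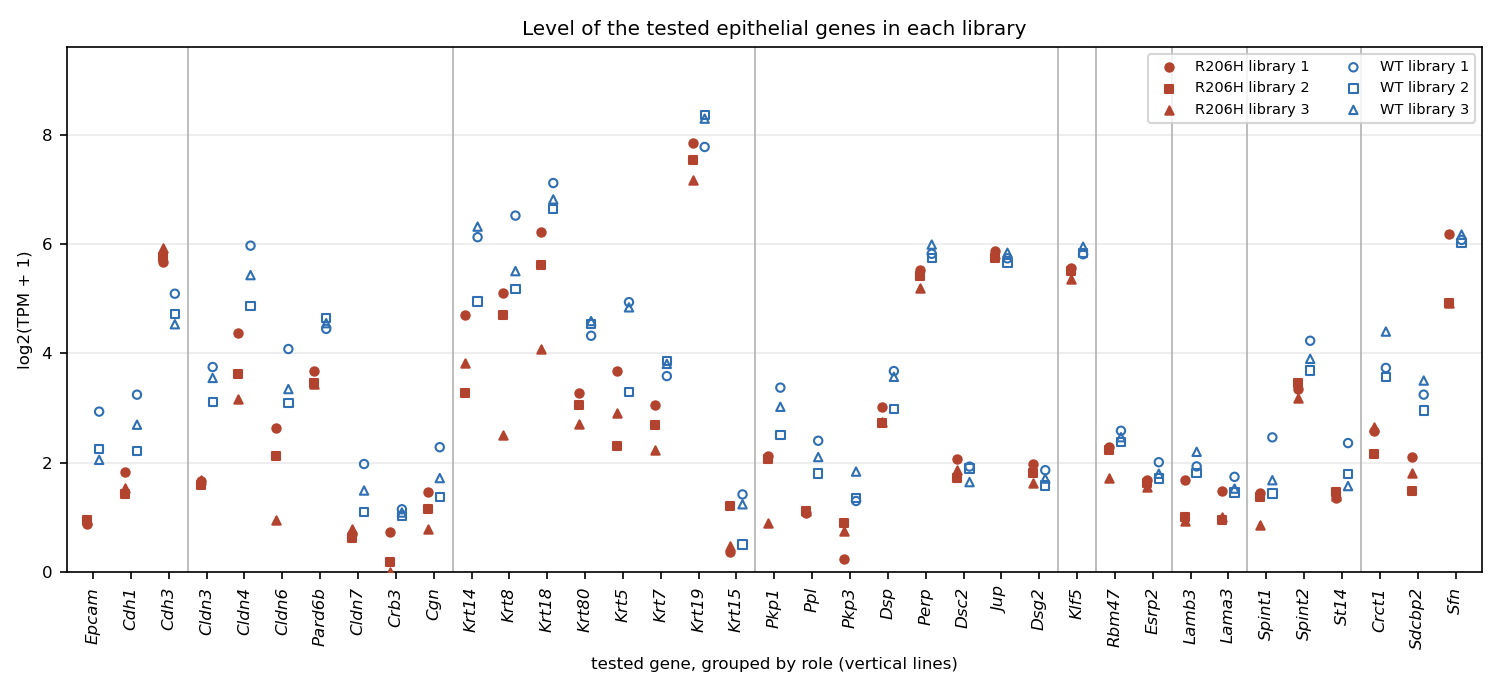
Level of each of the 37 tested genes, as log2(TPM + 1), in R206H libraries (filled) and WT libraries (open), with circles, squares and triangles for libraries 1, 2 and 3 and vertical lines between roles. In 25 genes all filled symbols lie under all open ones, and in Cdh3 they lie above.

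The calls depended on single libraries. None of the 37 was past the limma threshold without R206H library 2, without R206H library 3 or without WT library 3, fits in which 0, 1 and 1 genes of the whole series were called and 21, 19 and 19 members were lower at an unadjusted p under 0.05. The share of all genes at that unadjusted p was not computed for these fits. Cldn3 alone passed without WT library 2, where 5 genes were called in all. Without WT library 1 the called members were Cdh3, Cldn3, Epcam, Krt80 and Pard6b, where 288 genes were called in all. Without R206H library 1 the lower calls among members numbered 12, where 311 of all 14818 genes were lower. In each of these fits the 7 differences kept their sign.

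Among adhesion molecules Epcam fell and P-cadherin rose in R206H cells, and E-cadherin did not pass. Epcam, a homophilic adhesion molecule of epithelial surfaces, measured 0.838, 0.926 and 0.948 TPM in R206H libraries 1, 2 and 3, against 6.65, 3.77 and 3.15 TPM in WT libraries 1, 2 and 3. The R206H libraries were within a narrow range, all below the lowest WT library, and WT library 1 was the highest. The mean was 0.904 ± 0.0582 TPM in R206H cells and 4.52 ± 1.87 TPM in WT cells (SD, n = 3 each), a log2 difference of -1.49 (SE 0.25, limma adjusted p = 0.0476). These levels rest on about 32.3 rebuilt reads in R206H libraries together and 167.8 in WT libraries together. A filter on the mean over all 6 libraries, chosen after seeing the data, gave Epcam an adjusted p of 0.051 in limma, within a range of 0.0176 to 0.152 over all alternatives.

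Cdh1, the E-cadherin of epithelial adherens junctions, measured 2.58, 1.7 and 1.92 TPM in R206H libraries, against 8.48, 3.65 and 5.48 TPM in WT libraries. All R206H libraries lay below all WT libraries, but the difference of -1.11 (SE 0.27) had an adjusted p of 0.0728 in limma and did not pass. Cdh3, the P-cadherin of basal epithelial layers, measured 50.2, 53.2 and 59.8 TPM in R206H libraries, against 33.1, 25.4 and 22.1 TPM in WT libraries. The groups did not overlap, and Cdh3 rose 2.03-fold by mean TPM, to 54.4 ± 4.93 TPM in R206H cells against 26.9 ± 5.62 TPM in WT cells (log2 difference 1.01, SE 0.15, limma adjusted p = 0.0454). The 2 cadherin genes lie 46.1 kb apart on chromosome 8, Cdh3 at chr8:106510891-106557297 and Cdh1 at chr8:106603351-106670246 (GRCm38, plus strand).

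Tight junction and polarity genes held 2 of the 6 decreases, Cldn3 and Pard6b. The 11 genes together made up 32.0 ± 9.91 TPM in R206H cells and 94.8 ± 24.4 TPM in WT cells (SD, n = 3 each), with R206H libraries at 42.8, 29.6 and 23.4 TPM and WT libraries at 121, 72.7 and 90.7 TPM. Of the 7 tested, 2 were lower past the limma threshold, against 0.79% of all genes tested. At an unadjusted p under 0.05, 6 were lower, against 11.7%, and the median difference was -1.02. Among the 7, Cldn7 and Crb3 were tested only because WT levels were higher. No R206H library reached the level of any WT library in the sum of the 11 genes. Of the 11, 10 had a lower mean in R206H cells. All 7 tested had a negative difference, where 46.4% of all genes tested did.

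Cldn3, a sealing claudin of tight junctions, measured 2.17, 2 and 2.24 TPM in R206H libraries, against 12.5, 7.63 and 10.7 TPM in WT libraries. The R206H libraries agreed closely with one another and all lay well under the lowest WT value. The mean fell to 2.14 ± 0.122 TPM in R206H cells, against 10.3 ± 2.45 TPM in WT cells, a log2 difference of -1.82 (SE 0.18, limma adjusted p = 0.0272). Its neighbour Cldn4, another claudin of sealing junctions 39.3 kb away on chromosome 5, measured 19.8, 11.3 and 7.94 TPM in R206H libraries, against 61.6, 28.1 and 42.1 TPM in WT libraries. Cldn4 did not overlap between genotypes either, yet it varied more within each, and its difference of -1.7 (SE 0.36) had an adjusted p of 0.0604 in limma. Exons of Cldn3 overlap 40 nt of the antisense gene Wbscr25, and reads of the 2 cannot be separated without the strand setting.

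Pard6b, a scaffold of the polarity complex that also acts outside epithelia, measured 11.8, 10 and 9.83 TPM in R206H libraries, against 20.8, 24 and 22.5 TPM in WT libraries. The spread within each genotype was small beside the gap between them. Pard6b fell to 10.5 ± 1.07 TPM in R206H cells, against 22.4 ± 1.59 TPM in WT cells (log2 difference -1.02, SE 0.1, limma adjusted p = 0.0272). Cldn6, a claudin of embryonic epithelia, measured 5.22, 3.34 and 0.934 TPM in R206H libraries, against 15.9, 7.56 and 9.18 TPM in WT libraries. R206H library 3 was the lowest and WT library 1 the highest for Cldn6, the groups did not overlap, and the difference of -1.61 (SE 0.45, limma adjusted p = 0.0889) did not pass.

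The other tight junction genes were weaker. Cldn7 and Crb3, a claudin and the apical polarity protein Crumbs3, had means of 0.625 and 0.263 TPM in R206H cells, against 1.96 and 1.13 TPM in WT cells, with no overlap of libraries and no pass in limma. Cgn, the junction plaque protein cingulin, had 1.24 ± 0.515 TPM in R206H cells and 2.59 ± 1.17 TPM in WT cells, and its libraries overlapped. Ocln, Marveld3, Marveld2 and Tjp3 were under the filter; all R206H libraries lay below all WT libraries in Ocln and Marveld3, and the libraries overlapped in Marveld2 and Tjp3.

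**Figure D2:**
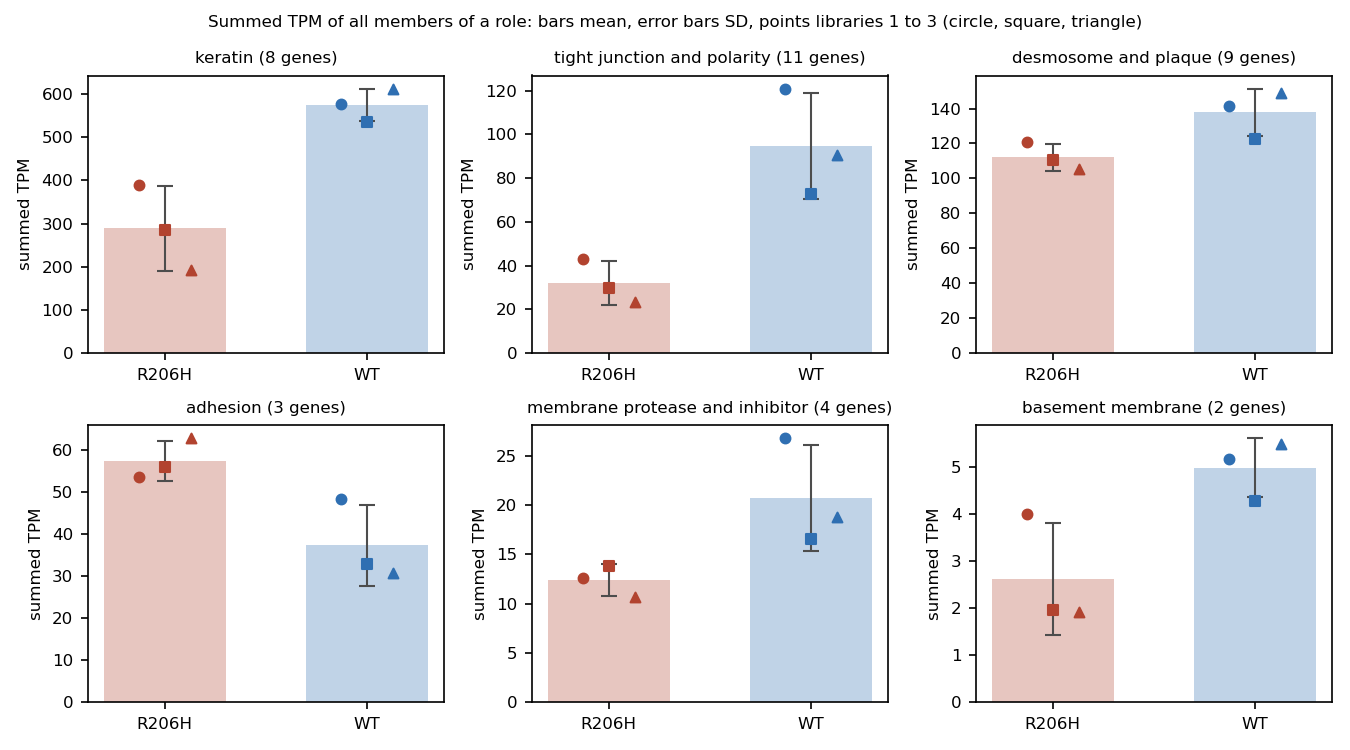
Summed TPM of all members of 6 roles in R206H and WT cells, with bars for the mean, error bars for the SD (n = 3 each) and points for libraries 1 to 3. Keratins summed to 289.4 TPM in R206H cells and 574.5 TPM in WT cells, and adhesion genes, led by Cdh3, summed to 57.4 TPM in R206H cells and 37.3 TPM in WT cells.

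Keratins had the largest summed level of the 10 roles, most of it Krt19 and Krt18, and all 8 had lower means in R206H cells. Over all genes tested, 46.4% had a negative difference. The keratin sum was 389.8, 285.4 and 193 TPM in R206H libraries, against 575.9, 536 and 611.8 TPM in WT libraries, with no overlap. Of the 8, 1 was lower past the limma threshold, Krt80, against 0.79% of all genes tested. At an unadjusted p under 0.05, 7 were lower, against 11.7%, and the median difference was -1.43. Krt80, a type II keratin of differentiating epithelia, measured 8.67, 7.33 and 5.55 TPM in R206H libraries, against 19, 22.2 and 23.1 TPM in WT libraries. It fell to 7.19 ± 1.57 TPM in R206H cells, against 21.4 ± 2.15 TPM in WT cells (log2 difference -1.47, SE 0.16, limma adjusted p = 0.0272), with all R206H libraries under all WT libraries. Krt7, a simple-epithelium keratin 40.9 kb from Krt80 on chromosome 15, measured 7.37, 5.47 and 3.71 TPM in R206H libraries, against 11, 13.47 and 13 TPM in WT libraries. Krt7 did not overlap and was just outside the threshold (difference -1.08, SE 0.21, limma adjusted p = 0.0511).

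Krt8 and Krt18, partners in the filaments of simple epithelia and neighbours 23.7 kb apart on chromosome 15, had the same order of libraries. Krt18 measured 73.2, 48.1 and 16 TPM in R206H libraries, against 137.5, 99 and 111.6 TPM in WT libraries. Krt8 measured 33.2, 25 and 4.68 TPM in R206H libraries, against 90.7, 35.1 and 44.3 TPM in WT libraries. In both genes R206H library 3 was far the lowest and WT library 1 the highest, and the genotypes did not overlap, though for Krt8 R206H library 1 came close to WT library 2. Neither passed in limma, with differences of -1.55 (SE 0.49, adjusted p = 0.113) for Krt18 and -1.63 (SE 0.68, adjusted p = 0.187) for Krt8. Without R206H library 3 the differences were -0.94 for Krt18 and -0.83 for Krt8, so their size rests on that library.

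Krt14 and Krt5, the pair of basal epidermal cells, followed another order of libraries. Krt14 measured 24.9, 8.71 and 13.2 TPM in R206H libraries, against 68.7, 29.8 and 78.7 TPM in WT libraries. Library 2 was the lowest of each genotype, the genotypes did not overlap, and the difference of -1.86 (SE 0.45) had an adjusted p of 0.0717 in limma. Krt5 had means of 7.43 ± 4.05 TPM in R206H cells and 22 ± 11.5 TPM in WT cells and overlapped, since WT library 2 at 8.77 TPM was below R206H library 1 at 11.9 TPM. Krt19, a type I keratin of simple epithelia and mesothelium and the most abundant member, measured 230.3, 185.5 and 143 TPM in R206H libraries, against 217.7, 327.2 and 312.1 TPM in WT libraries. R206H library 1 exceeded WT library 1 for Krt19, so the genotypes overlapped, with a difference of -0.62 (SE 0.21, limma adjusted p = 0.126). Krt15, a basal keratin, lay between 0.29 and 1.68 TPM and also overlapped. Exons of Krt80 overlap 263 nt of the antisense gene Gm35853.

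**Figure D3:**
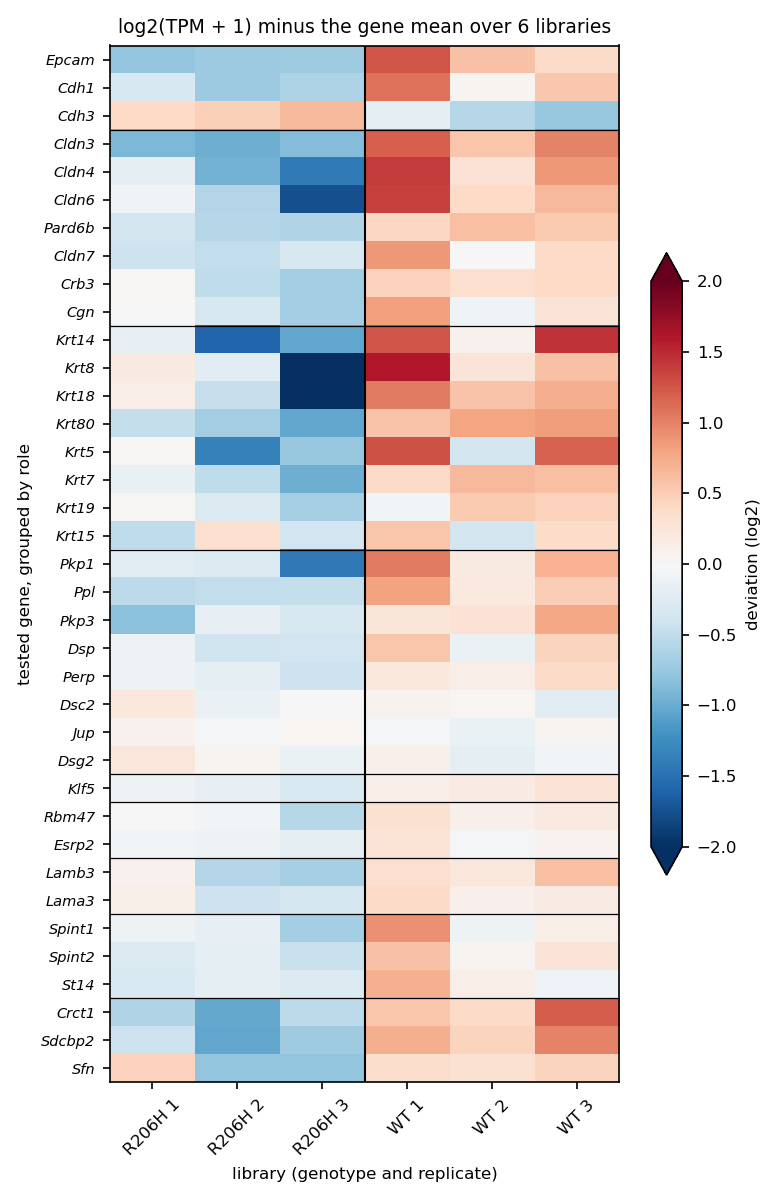
Deviation of log2(TPM + 1) from each gene's mean over the 6 libraries, for the 37 tested genes in rows, grouped by role, and the libraries in columns, with blue below and red above the mean. The colour scale ends at -2 and 2. Krt8 and Krt18 are lowest in R206H library 3, Krt5 and Krt14 are lowest in R206H library 2, and Cdh3 is above its mean in all R206H libraries.

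The libraries of a genotype also differed across members as a set. R206H library 1 was the highest R206H library in 27 of 37 tested members (73%) beside 29.2% of all genes tested, and R206H library 3 the lowest in 19 of 37 (51.4%) beside 32.7%. WT library 2 was the lowest WT library in 27 of 37 (73%) beside 37.6% of all genes, and WT library 1 the highest in 24 of 37 (64.9%) beside 46%. The median deviation of the 37 members from their 6-library mean was -0.1, -0.41 and -0.62 (log2) in R206H libraries 1, 2 and 3, and 0.56, 0.16 and 0.45 in WT libraries 1, 2 and 3. The library medians of the genotypes did not overlap, and R206H library 1 and WT library 2 came nearest to each other.

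Desmosome genes were divided. Pkp1, Pkp3, Ppl, Dsp and Perp had negative differences, and the cadherins Dsg2 and Dsc2 and plakoglobin (Jup) had differences close to 0. None of the 8 tested passed in limma. At an unadjusted p under 0.05, 5 were lower, against 11.7% of all genes tested, and voom called Ppl and Perp lower, against 4.08%. Pkp3 was tested only because WT levels were higher. Ppl, periplakin, measured 1.12, 1.17 and 1.18 TPM in R206H libraries, against 4.29, 2.5 and 3.3 TPM in WT libraries. The R206H libraries were nearly equal and all below WT, with a difference of -1 (SE 0.2, limma adjusted p = 0.0569). Perp, a tetraspan membrane protein of desmosomes, measured 44.8, 41.6 and 35.7 TPM in R206H libraries, against 55.5, 52.4 and 62.5 TPM in WT libraries. Perp did not overlap between genotypes and had a difference of -0.47 (SE 0.1, limma adjusted p = 0.0618).

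Pkp1, plakophilin 1, measured 3.37, 3.17 and 0.875 TPM in R206H libraries, against 9.37, 4.71 and 7.13 TPM in WT libraries. Pkp3, plakophilin 3, measured 0.189, 0.871 and 0.681 TPM in R206H libraries, against 1.47, 1.55 and 2.58 TPM in WT libraries. Neither overlapped and neither passed, with limma adjusted p of 0.0963 and 0.114. Dsp, the linker to keratin filaments desmoplakin, averaged 6.13 ± 0.86 TPM in R206H cells and 9.86 ± 2.59 TPM in WT cells and overlapped by a single library. Jup, which also serves adherens junctions, measured 57.3, 52.7 and 55.6 TPM in R206H libraries, against 52.3, 49.3 and 56.3 TPM in WT libraries. Its libraries were interleaved, and the difference of 0.07 (SE 0.07, limma adjusted p = 0.572) was within the spread. Dsg2 averaged 2.52 TPM in R206H cells and 2.31 TPM in WT cells, and Dsc2 averaged 2.72 TPM in R206H cells and 2.55 TPM in WT cells, with overlap in both. Evpl, envoplakin, was under the filter and overlapped.

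**Figure D4:**
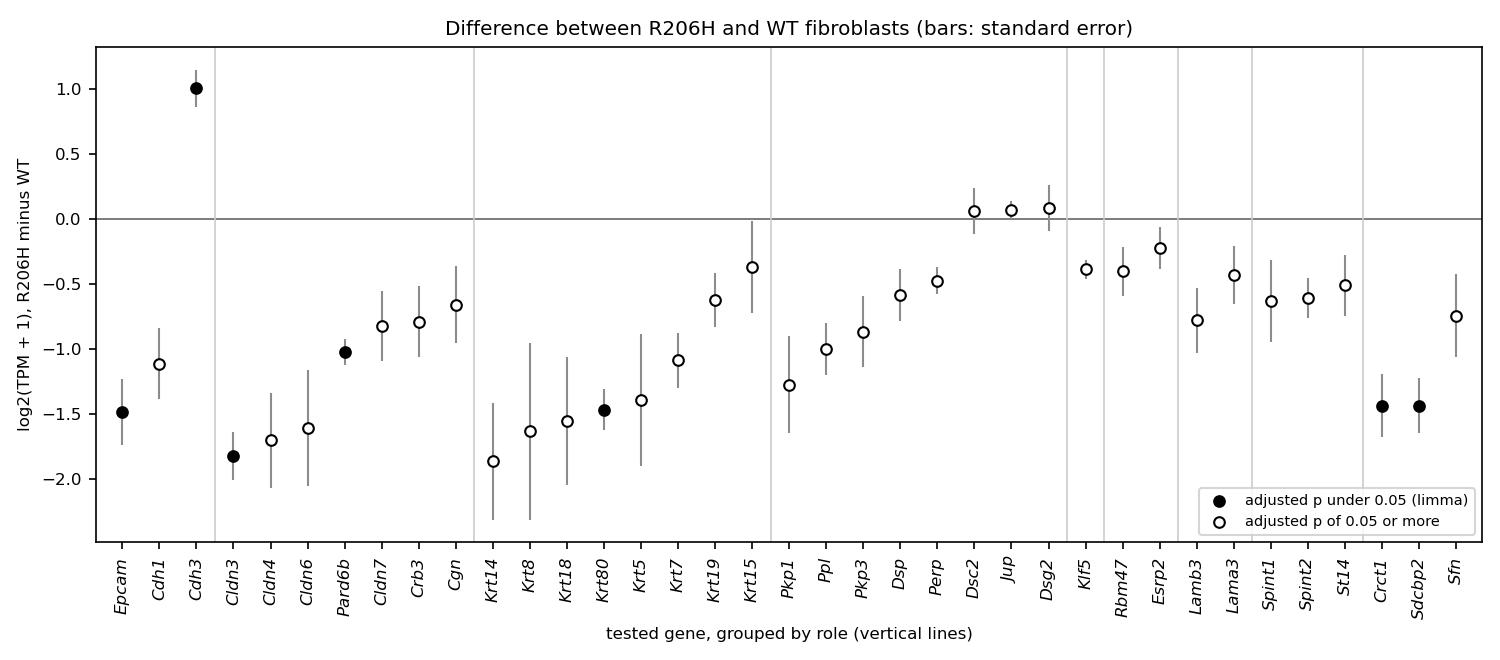
Difference in log2(TPM + 1), R206H minus WT, for the 37 tested genes, with the limma standard error as a bar and filled points for adjusted p under 0.05. The 7 filled points are Epcam, Cdh3, Cldn3, Pard6b, Krt80, Crct1 and Sdcbp2, and the points of Dsc2, Jup and Dsg2 lie beside 0.

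Among transcription factors only Klf5 was tested; the other 7 were weak. Klf5, a zinc-finger factor of gut and basal epithelia that fibroblasts also use, measured 46.3, 44.6 and 40.2 TPM in R206H libraries, against 55.2, 56 and 60.8 TPM in WT libraries. The genotypes did not overlap and both were tight, with a difference of -0.39 (SE 0.08), and the adjusted p was 0.0511 in limma and 0.0235 in voom (0.0188 to 0.183 over all alternatives). Grhl2, a Grainyhead-like activator of Cdh1 and claudin genes, measured 0.0311, 0 and 0 TPM in R206H libraries, against 0.193, 0.134 and 0.234 TPM in WT libraries. About 1.6 rebuilt reads in all R206H libraries and 28.2 in all WT libraries lie behind these Grhl2 levels, which were under the filter. Grhl1, Grhl3, Ovol1, Trp63, Elf3 and Ehf overlapped between genotypes, with no value above 1.02 TPM; Trp63, the p63 factor of basal epithelia, had 0.458 ± 0.177 TPM in R206H cells and 0.416 ± 0.144 TPM in WT cells.

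The RNA-binding regulators were low. Rbm47 measured 3.89, 3.69 and 2.28 TPM in R206H libraries, against 5, 4.21 and 4.53 TPM in WT libraries, with no overlap and no pass in limma (difference -0.4, SE 0.19, adjusted p = 0.233). Esrp1, a regulator of epithelial splicing, was under the filter at 0.163, 0.133 and 0.0837 TPM in R206H libraries, against 0.672, 0.211 and 0.51 TPM in WT libraries. Its relative Esrp2 was tested at 2.08 ± 0.131 TPM in R206H cells and 2.6 ± 0.386 TPM in WT cells (difference -0.22, SE 0.17, limma adjusted p = 0.439). In all 3 genes every R206H library lay below every WT library. That order was found in 15% of all genes tested and in 4.11% of genes under the filter with a value above 0. Of the 3 genes, 2 were tested, and none passed in limma, at an unadjusted p under 0.05 or in voom.

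The basement membrane members Lamb3 and Lama3 were likewise weak. Lamb3, the beta chain of laminin-332, measured 2.2, 1.02 and 0.904 TPM in R206H libraries, against 2.82, 2.53 and 3.6 TPM in WT libraries. R206H library 1 came nearest to WT, there was no overlap, and the difference of -0.78 (SE 0.25) passed in voom (adjusted p = 0.0493) but not in limma (adjusted p = 0.118; 0.0493 to 0.319 over all alternatives). Lama3, the alpha chain, overlapped, at 1.25 ± 0.476 TPM in R206H cells and 1.99 ± 0.315 TPM in WT cells. Spint2, an inhibitor of membrane serine proteases, measured 9.19, 10 and 8.14 TPM in R206H libraries, against 17.8, 11.9 and 13.9 TPM in WT libraries. Its libraries did not overlap, WT library 1 was the highest, and the difference of -0.6 (SE 0.15) had an adjusted p of 0.0776 in limma and 0.0403 in voom (0.0403 to 0.209 over all alternatives). The protease St14 (matriptase) had no overlap, and the inhibitor Spint1 and the protease Prss8 (prostasin) overlapped.

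Both vesicle traffic genes were under the filter and had all R206H libraries below all WT libraries. Rab25, a small GTPase of apical recycling, measured 0.204, 0.753 and 0.421 TPM in R206H libraries, against 1.9, 1.24 and 0.865 TPM in WT libraries. Ap1m2, the epithelial subunit of the AP-1 clathrin adaptor, measured 0.109, 0 and 0 TPM in R206H libraries, against 0.81, 0.235 and 0.614 TPM in WT libraries. Ap1m2 rests on 2 reads in all R206H libraries and 29 in all WT libraries. Of the 16 members not tested, 13 had a lower mean in R206H cells, a share not computed for all genes under the filter. Of the 16, 6 were lower with no overlap of libraries and 0 were higher with none. Over the 12372 genes under the filter with a value above 0 in any library, many of them at 0 in several libraries, 4.11% were lower and 3.44% higher with no overlap. These 6 were Ocln, Marveld3, Grhl2, Esrp1, Rab25 and Ap1m2, and limma was not run on them at the chosen filter.

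Of the remaining members, Crct1 and Sdcbp2 fell and Sfn did not pass. Crct1, a gene of the epidermal differentiation complex, measured 4.97, 3.44 and 5.33 TPM in R206H libraries, against 12.3, 10.8 and 20.1 TPM in WT libraries. All R206H libraries were lower, at 4.58 ± 1 TPM on average against 14.4 ± 4.98 TPM in WT cells (log2 difference -1.44, SE 0.24, limma adjusted p = 0.0476). Sdcbp2, the syntenin-2 scaffold with PDZ domains, measured 3.3, 1.8 and 2.51 TPM in R206H libraries, against 8.49, 6.76 and 10.3 TPM in WT libraries. It too had no overlap and fell to 2.54 ± 0.75 TPM in R206H cells, against 8.53 ± 1.79 TPM in WT cells (log2 difference -1.43, SE 0.21, limma adjusted p = 0.0454). Sfn, the 14-3-3 sigma protein of stratified epithelia, measured 71.8, 29.4 and 29.4 TPM in R206H libraries, against 66.4, 64 and 71 TPM in WT libraries. R206H library 1 was the highest of all 6 for Sfn and the other R206H libraries were the lowest, so the genotypes overlapped (difference -0.74, SE 0.32, limma adjusted p = 0.199).

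Members listed as epithelial and members listed as broad both had negative medians. By background knowledge, 40 members were listed as epithelial and 13 as broad, namely Ocln, Pard6b, Krt8, Krt18, Dsp, Dsg2, Jup, Ppl, Perp, Grhl1, Klf5, Spint2 and Sdcbp2. Of 26 epithelial members tested, 4 were lower and 1 higher past the limma threshold, 16 were lower and 1 higher at an unadjusted p under 0.05, 8 were lower and 1 higher in voom, and the median difference was -0.81. Of 11 broad members tested, 2 were lower and none higher, with 9 lower and 0 higher at an unadjusted p under 0.05, 7 lower and 0 higher in voom, and a median difference of -0.6. Summed levels were 369.2 ± 87.9 TPM in R206H cells and 627.8 ± 48.6 TPM in WT cells for the epithelial members, and 239.2 ± 54.5 TPM in R206H cells and 401.8 ± 55.6 TPM in WT cells for the broad ones. Krt19 and Krt7 were listed as epithelial although they also stand among the mesothelial markers. Krt19 alone held 186.3 TPM of the epithelial sum in R206H cells and 285.6 TPM in WT cells. Over all genes tested, 0.79% were lower in limma, 11.7% at an unadjusted p under 0.05 and 4.08% in voom. Epcam, Pkp3, Cldn7 and Crb3, tested only because WT levels were higher, were all listed as epithelial. So were Krt80 and Crct1, known decreases when the genes were listed, while Sdcbp2 was listed as broad. Outside these genes the lower limma calls were Cldn3 among epithelial members and Pard6b among broad ones. No test between the epithelial and broad lists was made.

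A wider list of the same structures was read beside the members. Of 61 further junction, keratin, desmosome, hemidesmosome and identity genes, 43 were tested, and 2 were lower and 0 higher in limma, where 0.79% and 1.26% of all genes were. At an unadjusted p under 0.05, 17 were lower and 7 higher, beside 11.7% and 14.4% of all genes. voom called 9 lower and 2 higher, beside 4.08% and 4.61%, and the median difference was -0.15. Cgnl1 (paracingulin), a relative of cingulin at junction plaques, measured 53.8, 41.7 and 43.7 TPM in R206H libraries, against 84.2, 71.9 and 89.1 TPM in WT libraries. Afdn (afadin), which links nectins to actin, measured 39.9, 42.3 and 32.5 TPM in R206H libraries, against 57.1, 54.6 and 59.1 TPM in WT libraries. Neither overlapped, with log2 differences of -0.81 (SE 0.12, limma adjusted p = 0.0454) for Cgnl1 and -0.57 (SE 0.1, limma adjusted p = 0.0476) for Afdn.

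Genes that repress the epithelial programme and markers of other cell types were read beside the members. Snai1, the Snail repressor of Cdh1, measured 192.6, 211.3 and 263.2 TPM in R206H libraries, against 114.3, 110.3 and 122.8 TPM in WT libraries. Snai2 (Slug) measured 93, 111 and 112 TPM in R206H libraries, against 63.6, 71.6 and 75.1 TPM in WT libraries. Both rose in R206H cells with no overlap, by 0.92 (SE 0.11, limma adjusted p = 0.0362) for Snai1 and 0.58 (SE 0.1, limma adjusted p = 0.0476) for Snai2. Zeb1 and Twist1 were higher in every R206H library without passing, and Zeb2 and Twist2 overlapped. The part of these repressors in the members' levels was not tested.

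Of 8 mesothelial markers outside the members, 7 were tested and Msln (mesothelin) was the only call, at 58.2, 40.5 and 26.4 TPM in R206H libraries against 101.7, 98.9 and 111.4 TPM in WT libraries (log2 difference -1.37, SE 0.25, limma adjusted p = 0.0489). The other 7 overlapped, Upk3b, Upk1b, Lrrn4 and Wt1 among them, and the 8 summed to 49 to 152.9 TPM in R206H libraries and 135.3 to 179.2 TPM in WT libraries, lowest in R206H library 3 as for Krt8 and Krt18. Of 12 fibroblast markers, 10 were higher in all R206H libraries than in all WT libraries, against 17.9% of all genes tested. In limma 0 passed upward, against 1.26%. At an unadjusted p under 0.05, 10 were higher, against 14.4%, and in voom 7, against 4.61%. Cdh2 (N-cadherin) was lower (-0.37, limma adjusted p = 0.0463). The 6 endothelial markers summed to 8.19 to 13.9 TPM in R206H libraries and 13.6 to 31.7 TPM in WT libraries, highest in WT library 1. Of 4 tested, 0 passed in limma or voom. At an unadjusted p under 0.05, 1 was lower, against 11.7% of all genes tested. Cldn5 was at 0 in 3 of the 6 libraries. The part of these cell types in the members' levels was not tested.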

How the data were processed

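Total RNA from 6 libraries of mouse embryonic fibroblasts, depleted of ribosomal RNA, was read from both ends at 150 bp, per the labels' protocols. The authors deposited 1 table of TPM values for 49315 Ensembl genes. Per the submitters' processing notes, reads were handled with DESeq2, STAR, Trimmomatic, Subread and featureCounts on builds named GRCm38 and mm10, with roles and versions not given in the sources used here, and neither are the annotation release and the strand setting. TPM is a share of each library, and total RNA also holds unspliced transcripts.

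The 53 members were matched by symbol and all were found. The counts without members that reached TPM 1 in WT libraries alone were added after seeing the data. The members and all gene lists were chosen with earlier results of these data known. The 14818 genes at TPM 1 or above in 3 or more libraries were log2-transformed after adding 1 and compared two-sided in limma 3.58.1 (R 4.3.3; lmFit, then eBayes with trend, genotype as the single term), with Benjamini-Hochberg adjustment over all of them at 0.05. An exact permutation test of 3 against 3 libraries cannot give a p under 0.1, so none was used. Per-library values are given for members past the threshold, the 20 tested members with the smallest unadjusted p and the most abundant member of each role, and for epithelial genes outside the members past the threshold. Krt8, Grhl2, Esrp1, Ap1m2, Snai1, Snai2, Msln and the single genes of the observations were chosen after their values were seen.

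Reads were rebuilt as TPM times the exon-union length of GENCODE release M21 (GRCm38). Among values under 100 reads, 91.1% to 91.4% came out whole within 0.05, and for 33 of the 53 members all 6 values did. limma voom was run on these reads as an alternative. The scripts were tested on simulated data with known differences. Also tried were library weights, each library left out in turn, the replicate number as a block, no trend, scaling by median of ratios, a filter at TPM 0.25 or none, and a pseudocount of 0.1 or 5. Reads of keratins, which have near-identical relatives and pseudogenes, and of genes with antisense partners may be split differently from what the table shows. Tables were joined in pandas 2.3.3 and plots drawn in matplotlib 3.10.9, under Python 3.11.15.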

Additional observations from a re-analysis of the deposited data

How the results depend on the processing

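With 6 members lower and 1 higher past the limma threshold, the counts were 0 and 0 with no filter, 2 and 0 without the mean-variance trend, 0 and 0 with a replicate block, 15 lower with voom and 15 lower with library weights. Over all genes, lower calls numbered 0 with no filter, 8 without the trend and 0 with the block. They numbered 603 of 14785 genes with voom and 784 of 14818 with library weights. Calls in both directions numbered 1284 with voom and 1906 with library weights. With each library left out the member counts ran from 0 to 12 lower and from 0 to 1 higher. The 12 came without R206H library 1, a fit that called 311 of 14818 genes lower. Beside the counts of 0, 29 members were lower at an unadjusted p under 0.05 with no filter and 27 with the replicate block. The share of all genes at that p was not computed for these fits. Same-numbered libraries of the genotypes correlated at 0.018, 0.06 and -0.028 in their deviations, beside -0.052 to 0.03 for differently numbered ones. The labels do not say whether the numbers pair the samples, and correlations this small cannot show that they do not. The 2 decreases among other epithelial genes were 1 with a pseudocount of 0.1, with a filter at TPM 0.25 or with a filter on the mean, an alternative added after seeing the data. They were 0 with no filter, without the trend and with the replicate block, 9 with voom, 8 with library weights, and 0 to 4 with a library left out. Increases there, 0 in the main analysis, were 2 with voom, 4 with library weights and 0 to 2 with a library left out. The median difference of the tested members was -1.15 with a pseudocount of 0.1, -0.44 with a pseudocount of 5 and -1.22 with voom, and -0.98 to -0.64 with a library left out. Among single genes, only Dsg2 and Dsc2 changed sign in any alternative run: with a library left out, Dsg2 ran from -0.0016 to 0.18 and Dsc2 from -0.031 to 0.14, and Dsc2 was -0.026 without WT library 3. The pseudocounts and filters act mainly on weak genes by construction; for the others the cause was not tested. Median-of-ratios scaling gave the same 7 calls. The 16 untested members and those near 1 TPM rest on few reads, which limits what a difference in them can show.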

Other observations

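Of 10 keratins read outside the 53 genes, 9 had a lower mean in R206H cells. Of the 6 tested, none passed in limma. With no overlap of libraries 4 were lower, against 15% of all genes tested, and 1 was higher, against 17.9%. The 4 were Krt17, Krt6a, Krt16 and Krt20, and Krt13 overlapped. Krt1, Krt4, Krt6b and Krt23 were under the filter and overlapped. Krt17, a keratin induced in stressed and proliferating epidermis, measured 2.98, 2.98 and 1.13 TPM in R206H libraries, against 24.6, 7.62 and 14.7 TPM in WT libraries, just outside the limma threshold (difference -2.23, SE 0.42, adjusted p = 0.0501). Krt6a and Krt16, also keratins of stressed epidermis, measured at most 1.06 TPM in any R206H library. In WT libraries Krt6a measured 1.57 to 14.2 TPM and Krt16 1.7 to 14.6 TPM, with no overlap and limma adjusted p of 0.109 and 0.0926. Krt10, a keratin of suprabasal epidermis, had the opposite order, at 4.77, 6.95 and 8.07 TPM in R206H libraries against 4.21, 3.57 and 3.88 TPM in WT libraries (limma adjusted p = 0.104). The 9 suprabasal epidermal markers outside the 53 genes, Krt10 among them, summed to 25.8, 25 and 24.7 TPM in R206H libraries, against 37.5, 24 and 43.4 TPM in WT libraries, so the genotypes overlapped. Krt10 and Tgm3, an epidermal transglutaminase with at most 0.761 TPM in any library, were higher in all R206H libraries than in all WT libraries. That order was found in 17.9% of all genes tested and in 3.44% of genes under the filter, where Tgm3 lay. None of the 9 was lower with no overlap, against 15% and 4.11%. Of the 5 tested, Sprr1a (-1.35) and Ivl (-1.14) were lower at an unadjusted p under 0.05 in limma, against 11.7% of all genes. Krt10 was higher by that rule, against 14.4%, and none of the 5 passed after adjustment.

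Some laminin genes had higher values in R206H cells. Lamb2, Lama5 and Lamc1, which encode basement membrane laminin chains, were higher in all R206H libraries than in all WT libraries, by 0.56, 0.49 and 0.29 on the log2 scale, without passing in limma, and voom called Lamb2 and Lama5.

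Markers of other epithelia were low, and the libraries that held them differed between markers. Afp, an early liver marker, was at 9.29, 0.436 and 0 TPM in R206H libraries, against 0, 0.351 and 0 TPM in WT libraries, and Serpina1a was at 0 in every library. Pax2, a kidney marker, was at 4.33, 4.97 and 2.5 TPM in R206H libraries, against 8.82, 2.54 and 0 TPM in WT libraries. The 6 kidney and urogenital markers summed to 11.1 to 22.9 TPM in R206H libraries and 13.3 to 30.8 TPM in WT libraries. The 6 lung and foregut markers summed to 8.62 to 9.12 TPM in R206H libraries and 12.3 to 15.4 TPM in WT libraries, most of it Sox2, which was present in all 6 libraries at 7.23 to 14.2 TPM. The 6 macrophage markers summed to 46.2 to 107.9 TPM in R206H libraries and 55 to 87.6 TPM in WT libraries.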
